A study of Mus musculus with 157 samples.

Results

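The comparison described here is that of RNA polymerase II (Pol II) at gene promoters in mouse E14 embryonic stem cells after 4 h of retinoic acid (RA) with the same cells at 0 h. Its members are 10 of the 157 samples of the series, chosen by their antibody and hours of RA in the labels. They are 3 libraries of total Pol II at 4 h (replicates 1, 3 and 4) and 2 at 0 h (replicates 1 and 4), and the same numbers for Pol II phosphorylated at serine 5 (Ser5p). E14 cells are wild type and were grown in serum with the cytokine LIF on gelatin. The 4 h cells received 1 µM RA, and the 0 h cells are the untreated start of the 7 times sampled. Total Pol II was precipitated from crosslinked chromatin through the N-terminal domain (NTD) of its largest subunit. Reads were counted within 1 kb on either side of each annotated transcription start, so every window has the same width and levels can be compared between genes. Levels are given as promoter reads scaled to the library total (CPM), and log2 changes are 4 h minus 0 h.

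RA enters cells, binds receptors of the RAR family paired with RXR on DNA, and turns those receptors from repressors of nearby genes into activators. The known direct targets in embryonic stem cells include the RA-degrading enzyme Cyp26a1, the receptor Rarb and several Hox genes. Pol II loads at promoters with an unmodified tail, gains Ser5p as it starts transcription and pauses, and gains serine 2 phosphorylation (Ser2p) as it moves through the gene.

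The receptors bind direct repeats of the sequence AGGTCA. The search also took copies that read AGTTCA, copies that have GGGTCA in its place and copies with the letters GGTTCA. Repeats with 1, 2 or 5 bases between the copies were searched on both strands from 250 bases before to 50 after each RefSeq start (build GRCm38.p6). Among the promoters of the genes where total Pol II rose, 2 held such a repeat, those of Cyp26a1 and Rarb, each with 5 bases between the copies. The 250 bases before the start are shown 5′ to 3′ on the strand of the gene for these genes and for Stra8, a gene with a similar rise and no such repeat in the window. Capitals mark the repeat. Promoters were matched to genes by symbol, so for a gene with several starts the stretch shown need not be the start that was counted. The Cyp26a1 stretch is chr19:37697558-37697807 (plus strand), that of Rarb chr14:16575477-16575726 (minus strand) and that of Stra8 chr6:34920698-34920947 (plus strand).
Cyp26a1: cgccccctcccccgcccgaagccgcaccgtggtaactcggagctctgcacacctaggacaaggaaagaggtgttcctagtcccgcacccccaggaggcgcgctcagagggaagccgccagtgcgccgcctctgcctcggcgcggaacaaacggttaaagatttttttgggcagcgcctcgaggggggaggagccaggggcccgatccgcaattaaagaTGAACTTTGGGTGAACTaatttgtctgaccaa
Rarb: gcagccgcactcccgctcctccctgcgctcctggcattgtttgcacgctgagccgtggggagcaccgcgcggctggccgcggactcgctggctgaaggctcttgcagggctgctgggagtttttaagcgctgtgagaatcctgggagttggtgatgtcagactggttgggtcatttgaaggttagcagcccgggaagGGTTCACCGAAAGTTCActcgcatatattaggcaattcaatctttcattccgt
Stra8: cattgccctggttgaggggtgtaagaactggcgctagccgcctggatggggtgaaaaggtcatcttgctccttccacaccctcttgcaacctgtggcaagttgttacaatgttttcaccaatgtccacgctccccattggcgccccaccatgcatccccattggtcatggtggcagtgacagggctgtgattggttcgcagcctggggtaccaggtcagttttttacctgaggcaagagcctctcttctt

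In Cyp26a1 the repeat lies on the opposite strand, at bases -32 to -16 from the start (chr19:37697776-37697792), where it reads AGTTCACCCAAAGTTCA. In Rarb it lies on the strand of the gene at bases -53 to -37 (chr14:16575513-16575529) and reads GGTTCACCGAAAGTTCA. Repeats with 5 bases between the copies were in 32 of all 32817 promoters (0.0975%), against 73 with 1 base (0.222%) and 88 with 2 bases (0.268%). Of the genes where total Pol II was called higher, 41 of 54 had a promoter in the table, 71 promoters in all, and the 2 named were the matches. A match is a stretch of letters and was not tested as a bound site.

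At 4 h total Pol II was higher at the promoters of some genes known to respond to RA, among them Cyp26a1, Rarb and Stra8. Of a list of 12 other known responders, which holds Stra8, 10 were not called. In 2 lists drawn up by function, 13 of 16 genes of retinoid metabolism and 8 of 12 receptors and coregulators were not called. The largest rise was at Cyp26a1, 2.55 ± 0.33 on the log2 scale (standard error), and among the genes called both with all libraries and without 0 h replicate 4 it was followed by Cdx1, Acp5, Stra8, Rarb, Cd37 and Dhrs3. In all, 87 of 31868 tested transcripts were called higher (0.273%) and 139 were called lower (0.436%) at an adjusted p of 0.05 in edgeR's quasi-likelihood test. The authors' own scale factors, which move the median of all transcripts by 0.128, gave 28 higher and 108 lower, and DESeq2 gave 60 and 9. DESeq2 gave no adjusted p to 14211 of the 31868 transcripts, so its counts are over fewer of them. Other single libraries moved the counts too: 43 rises and 188 falls were called with 0 h replicate 1 left out, 36 and 103 with 4 h replicate 3 left out, and 55 and 104 with 4 h replicate 4 left out. With 1 transcript per gene symbol, 54 of 22142 symbols were higher and 136 lower. The falls rested almost wholly on 1 library. With 0 h replicate 4 left out the fit called 16 transcripts higher (0.0494%) and 2 lower (0.00617%) of 32401, which gave 11 higher symbols and 1 lower, all of them among the 54 and the 136. Both fits use the same 4 h libraries and 0 h replicate 1, so calls in both are not independent evidence. Since the labels name no separate cultures behind the replicates, a p-value here speaks of the scatter among these libraries only, part or all of which may be technical. In bulk chromatin, more cells with Pol II at a promoter and more Pol II per cell cannot be told apart.

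The 10 libraries had 1833284 to 2596879 promoter reads (NTD) and 1533067 to 2052881 (Ser5p), so single promoters rest on few reads: at Cyp26a1, where NTD changed most, the smallest count was 130 reads at 4 h and 26 reads at 0 h. The median promoter stood at 14.4, 13.7 and 13.9 CPM of NTD in the 4 h libraries and at 13.9 and 13.1 CPM in the 0 h libraries. Stem cell markers differed in level, and no background level was tested. Esrrb stood near the median promoter, with 11.4, 7.44 and 16.2 CPM of NTD at 4 h and 9.30 and 11.2 CPM at 0 h. Nanog had 47.8, 35.5 and 54.1 CPM at 4 h and 38.2 and 88.1 CPM at 0 h, and Zfp42, called lower, is given below. Sox2 and Pou5f1 stood above the median promoter in each of these libraries. Sox2 had 149, 97.3 and 97.2 CPM of NTD at 4 h and 114 and 145 CPM at 0 h, and Pou5f1 had 63.7, 43.5 and 54.6 CPM at 4 h and 57.3 and 77.7 CPM at 0 h. Neither was called, nor was any of the 12 core pluripotency genes. No marker of primitive endoderm (18 measured), neural cells (21), mesoderm (14), trophoblast (11) or fibroblasts (12) was called at 4 h, with summed NTD levels of, for example, 199.7 to 225.4 CPM at 4 h and 194.2 and 220.4 CPM at 0 h for primitive endoderm. The summed trophoblast markers stood a little apart, at 138.8 to 147.7 CPM at 4 h and 126 and 129.2 CPM at 0 h, and their part in the results was not tested.

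Among 16 genes of retinoid metabolism, 3 were called higher, beside 0.273% of all tested transcripts, and they include the largest change. Cyp26a1 (chr19:37697738-37701536), which oxidises RA for removal, had 71.1, 74.4 and 69.4 CPM of NTD at 4 h and 13.4 and 11.2 CPM at 0 h. The 4 h libraries lay close together and the groups were far apart, with an adjusted p of 1.48e-05 in edgeR and 0.00736 without 0 h replicate 4. Dhrs3 (chr4:144892534-144928209), which turns retinaldehyde back into retinol, had 34.8, 38.9 and 35.2 CPM at 4 h and 10.8 and 16.7 CPM at 0 h. Its change was 1.36 ± 0.26 (edgeR adjusted p 0.00138) and 1.72 without 0 h replicate 4 (edgeR adjusted p 0.026). Cyp26c1, a related RA-degrading enzyme whose gene lies 4417 bp from Cyp26a1, had 16.4, 28.6 and 20.4 CPM at 4 h and 9.30 and 10.4 CPM at 0 h. It was called with all libraries (1.12, edgeR adjusted p 0.0352) and not without 0 h replicate 4 (1.20, edgeR adjusted p 0.598). Over the 16 tested genes of retinoid synthesis, transport and breakdown these 3 were higher, 0 were lower and the median change was 0.09, beside 0.00 over all symbols. The uptake receptor Stra6 stood at 10.4, 8.01 and 13.4 CPM at 4 h and 8.26 and 8.77 CPM at 0 h, and the RA carrier Crabp2 at 23.9, 26.3 and 18 CPM at 4 h and 18.6 and 22.7 CPM at 0 h, neither of them called.

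Of the 12 receptors and coregulators, 4 were higher with all libraries, beside 0.273% of all tested transcripts, and 0 were lower. Of the 4, only Rarb was also called without 0 h replicate 4, beside 0.0494% of all transcripts there. Rarb (chr14:16430839-17082331) encodes a receptor that RA itself induces. It had 59.7, 57.2 and 56.4 CPM of NTD at 4 h and 14.5 and 22.3 CPM at 0 h, a change of 1.63 ± 0.29 (edgeR adjusted p 0.000372), or 1.98 without 0 h replicate 4 (edgeR adjusted p 0.0234). The rise was at 1 of its starts. Another Rarb start stood at 4.48, 2.86 and 2.78 CPM at 4 h and 5.16 and 6.38 CPM at 0 h. Rara had 40.8, 43.5 and 38.9 CPM at 4 h and 20.7 and 19.5 CPM at 0 h at 1 start (1.03, edgeR adjusted p 0.0126), while its other starts changed by 0.18, 0.16 and -0.53 and were not called. Rarg likewise rose at 1 start, with 48.8, 52.7 and 65.2 CPM at 4 h and 25.3 and 37.1 CPM at 0 h (0.82, edgeR adjusted p 0.048), and changed by 0.26 at the other. The difference between starts of a gene was not tested. Nrip1, a corepressor that binds receptors carrying their ligand, had 51.2, 75.0 and 66.2 CPM at 4 h and 28.4 and 33.5 CPM at 0 h (1.04, edgeR adjusted p 0.00556). Leaving out 0 h replicate 4, the changes of Rara, Rarg and Nrip1 were 0.97, 1.12 and 1.16, with edgeR adjusted p of 0.578, 0.15 and 0.191.

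The remaining genes called in both fits have varied roles. Cdx1, a caudal homeobox factor that acts on Hox genes, had 30.3, 38.3 and 52.7 CPM of NTD at 4 h and 8.26 and 9.17 CPM at 0 h (2.21 ± 0.30, edgeR adjusted p 2.01e-05). Stra8 (chr6:34920163-34939344), a factor that germ cells need to enter meiosis, had 46.3, 64.1 and 39.8 CPM at 4 h and 14.5 and 15.1 CPM at 0 h (1.74 ± 0.27, edgeR adjusted p 0.000102). Acp5 (chr9:22126727-22135746), the tartrate-resistant acid phosphatase of osteoclasts, had 39.8, 51.5 and 55.5 CPM at 4 h and 13.4 and 15.1 CPM at 0 h (1.77 ± 0.25, edgeR adjusted p 2.88e-05). In these 3 genes the 0 h libraries were nearly level and every 4 h library stood well above them. At 2 other Acp5 starts the changes were 0.75 and 0.82, neither of them called. Cd37 (chr7:45233632-45239340), a tetraspanin of B cells, had 36.8, 33.2 and 40.3 CPM at 4 h and 11.9 and 15.1 CPM at 0 h (1.43 ± 0.25, edgeR adjusted p 0.00036). Dock6 (chr9:21800180-21852718), an activator of the GTPases Rac1 and Cdc42, had 46.8, 52.1 and 73.6 CPM at 4 h and 21.2 and 27.1 CPM at 0 h (1.24 ± 0.22, edgeR adjusted p 0.000536). Ppdpf (chr2:181186822-181188504), named for a role in the pancreas of zebrafish, had the highest level of these genes, 140, 160 and 138 CPM at 4 h and 51.6 and 72.2 CPM at 0 h (1.23 ± 0.20, edgeR adjusted p 0.000183).

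Smyd4 and Rpa1 start 50 bp apart on opposite sides of a shared promoter, and their windows hold nearly the same reads. Smyd4 encodes a SET and MYND domain protein, and Rpa1 the large subunit of the complex that coats single-stranded DNA. Smyd4 had 75.6, 71.5 and 78.2 CPM of NTD at 4 h and 29.4 and 43.1 CPM at 0 h, so the pair counts as 1 changed region (1.04 for Smyd4 and 1.02 for Rpa1, edgeR adjusted p 0.00203 and 0.00253). The edgeR adjusted p without 0 h replicate 4 of Cdx1, Acp5, Stra8, Cd37, Dock6, Ppdpf, Smyd4 and Rpa1 were 0.00736, 0.00736, 0.0242, 0.0242, 0.0303, 0.00794, 0.0242 and 0.0242. Without 0 h replicate 1, in contrast, Dhrs3 (1.11, edgeR adjusted p 0.109), Ppdpf (1.02, 0.0577), Smyd4 (0.81, 0.317) and Rpa1 (0.77, 0.393) were not called, while Cdx1, Acp5 and Rarb kept their call under every alternative run. DESeq2 without 0 h replicate 4 called Cdx1, Acp5, Rarb and Ppdpf of the 11, with an adjusted p of 0.493 for Cyp26a1. Of these 11 genes 8 have an adjusted p under 0.05 in the authors' deposited table, all but Dhrs3, Smyd4 and Rpa1, as do 15 of the 54.

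**Figure D1:**
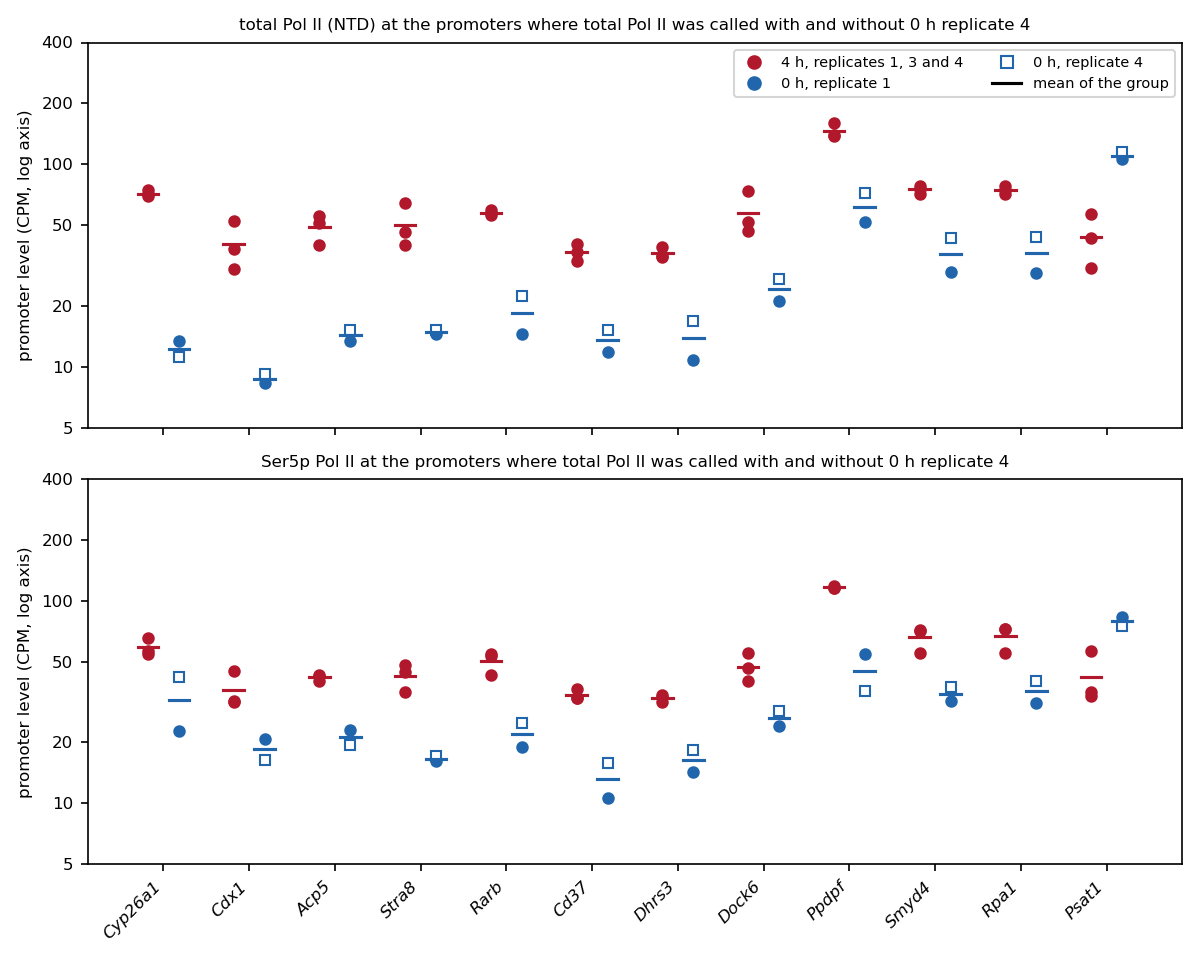
CPM on a log axis of NTD (top) and Ser5p (bottom) at the promoters of the 12 genes called in NTD with and without 0 h replicate 4. Each point is a library, red for 4 h and blue for 0 h with replicate 4 as an open square, and bars are group means; in NTD the 4 h and 0 h libraries do not overlap at any of these genes, and Psat1 is the one where 4 h is lower.

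The other 43 genes called higher with all libraries were not called without 0 h replicate 4, although every one kept a positive change there, with a median of 1.06 in place of 1.04. The 5 with the largest rise were Camk2n1, H2-Bl, Rhobtb1, Mir6358 and Nr6a1. Camk2n1, an inhibitor of the kinase CaMKII, had 21.4, 21.7 and 22.2 CPM of NTD at 4 h and 7.23 and 7.57 CPM at 0 h (1.55, edgeR adjusted p 0.000937, and 1.57 without 0 h replicate 4, edgeR adjusted p 0.15). Nr6a1, an orphan nuclear receptor that represses Pou5f1 as cells differentiate, had 50.7, 42.9 and 46.3 CPM at 4 h and 20.7 and 16.3 CPM at 0 h (1.35, edgeR adjusted p 0.000306, and 1.16 with 0.175 without that library). The 0 h libraries lay close together at Camk2n1 and somewhat less so at Nr6a1. In others of the 43 the value moved more, as at Itga3 (0.91, and 0.45 without 0 h replicate 4), Jund (0.98 and 0.55) and Braf (0.94 and 1.44), which were picked here after their values were seen. A second Rhobtb1 start was called in both fits, at 1.46 and 1.53. The rest were Bnip3, Hist2h3c2, 0610040F04Rik, Tle6, Pmepa1, Bhlhe40, Hoxa4, Steap3, Hivep3, Cyp26c1, Tspan9, AY512931, Tctn1, Hist1h1e, Nrip1, Spsb2, Dleu7, Rara, Mir7083, Cdk2ap1, Rbks, Jund, Tcp11, Clgn, Braf, Etfbkmt, Bmt2, Islr2, Itga3, Angptl8, Mdk, Pfkl, Babam2, Zfp523, Rarg, Dhx32, Acp6 and Pml, with changes of 0.71 (Pml) to 1.32 (Bnip3). All 54 had each 4 h library above each 0 h library, beside 9.99% of all tested transcripts. This belongs to how such genes come to be called.

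Some of the 54 are neighbours or share reads, so they are not all separate regions. Of the 50 with a location, 15 lay within 100 kb of another, in 9 pairs, and the share that other genes of the genome would give was not computed. Besides Cyp26a1 with Cyp26c1 and Smyd4 with Rpa1, Dock6 overlaps Mir7083 and Angptl8, and 0610040F04Rik overlaps Bhlhe40. Mir7083 (chr9:21809941-21810000) lies inside Dock6 (chr9:21800180-21852718), so its window need not be a promoter and holds reads of the Dock6 gene. Rbks lies 328 bp from Babam2, and Islr2 lies 12859 bp from Pml. Rbks and Babam2 start 440 bp apart, so their windows share reads.

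Of 15 anterior Hox genes, 1 was called higher and 3 lower with all libraries, beside 0.273% and 0.436% of all tested transcripts, and 0 in either direction without 0 h replicate 4. Hoxa4 was the 1 anterior Hox gene of 15 called higher, with 17.4, 17.2 and 19.4 CPM at 4 h and 9.81 and 5.98 CPM at 0 h (1.22, edgeR adjusted p 0.0343, and 0.86 with 0.958 without 0 h replicate 4). Hoxb1, Hoxb3 and Hoxb5 were the 3 called lower. Hoxb1 had 11.4, 12 and 9.25 CPM at 4 h against 9.30 CPM in 0 h replicate 1 and 62.6 CPM in 0 h replicate 4. Its change of -1.78 was 0.21 without that library, and those of Hoxb3 (-2.23) and Hoxb5 (-2.0) were 0.19 and -0.04. Without that library all 3 were thus close to 0. None of the 23 posterior Hox genes tested was called. Among the other lists, Jund (0.98) was the 1 called immediate early gene of 23, Zfp42 the 1 called naive pluripotency gene of 20, and Mcm3 (-1.19, and 0.15 without 0 h replicate 4) the 1 called cell cycle gene of 20. Of 12 further genes known to respond to RA, 2 were higher, Stra8 and Nr6a1, 0 were lower and the median change was 0.43. Cdx1 was the 1 gene called among 14 WNT targets and feedback genes and among 12 caudal genes and Hox cofactors. No gene was called in either direction among those of the LIF-STAT3 pathway (13 tested), FGF-ERK feedback (13), Nodal, activin, BMP and TGF-beta signalling (17), the formative and primed state (13), the heat shock and p53 response (13) or the transcription and pausing machinery (18).

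The 136 genes called lower stood apart in 0 h replicate 4. Their median NTD level was 12.9, 14.3 and 12.5 CPM in the 4 h libraries, 15.0 CPM in 0 h replicate 1 and 111 CPM in 0 h replicate 4. In 122 of the 136 (89.7%) replicate 4 was more than 2 times replicate 1 at 0 h, against 501 of all 22142 symbols (2.26%). In 55 of the 136 both 0 h libraries were above all 4 h libraries, beside 9.24% of all tested transcripts. In 51 of them 0 h replicate 1 lay among the 4 h libraries, and in 30 below them all. Over all 22142 symbols, 0 h replicate 1 stood above all 4 h libraries in 5381, among them in 11217 and below in 5544. The 136 were picked partly through the high level of 0 h replicate 4, so the share of 9.24% is not a fair comparison. The median change was -1.82 with all libraries and -0.12 without 0 h replicate 4, with 56 positive. Ednrb, the endothelin B receptor, shows the pattern, with 8.96, 5.72 and 6.01 CPM at 4 h and 7.23 and 222 CPM at 0 h. Its change was -4.07 with all libraries and -0.07 without 0 h replicate 4. Asic2 (-4.33 and -0.51), Col8a1 (-4.11 and -0.77), Megf10 (-4.10 and 0.10) and Sema6d (-4.08 and -0.55) were the other 4 of the 5 largest falls. They encode an ion channel subunit, a collagen chain, an engulfment receptor and a semaphorin.

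The high level of 0 h replicate 4 at these promoters was far weaker with the other antibody. At 0 h, Ser5p in replicate 4 was more than 2 times replicate 1 in 11 of the 136 (8.09%), against 3.16% of all symbols. Ser5p at the 136 had a median of 19.6, 15.3 and 18.1 CPM at 4 h and 18.5 and 21.6 CPM at 0 h, and its median change was -0.18, with 46 positive. Over all times, the median NTD level of the transcripts called lower reached 109 CPM in 0 h replicate 4 and 84.6 CPM in 72 h replicate 3. The other 15 libraries had 12.5 to 15.5 CPM. Over the 18 Ser5p libraries it was 15.1 to 21.6 CPM, with the highest value in 0 h replicate 4. NTD over the bodies of the same genes, from the same NTD libraries, changed by a median of -0.32, and by -0.04 without 0 h replicate 4. It was below in all 4 h libraries in 32 of 131 (8.65% of all transcripts). Of the 136, 94 had a RefSeq promoter, 114 promoters in all. These were richer in CG pairs than most, with a median of 60.2% GC and 16 CG pairs. The medians were 52.7% and 7 over all RefSeq promoters, not only those of tested genes, and 58.3% and 16 for the genes called higher. Whether base composition or library preparation bears on the level of that library was not tested.

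**Figure D2:**
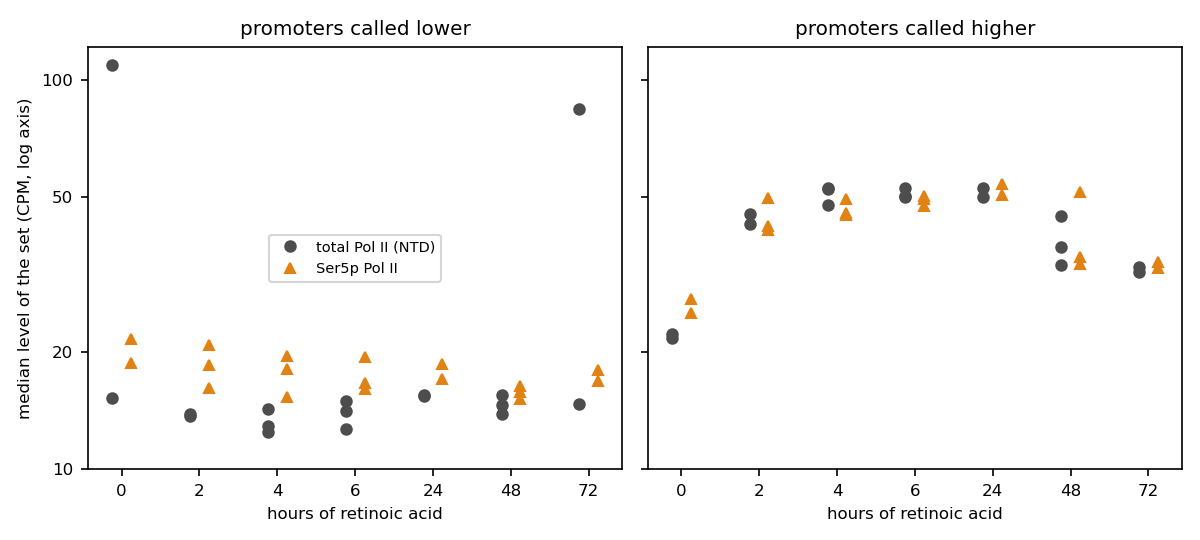
Median promoter CPM, library by library across 0 to 72 h, of the transcripts called higher and of those called lower in NTD at 4 h, for NTD and Ser5p. The lower set stands at 109 CPM in NTD 0 h replicate 4 and 84.6 CPM in NTD 72 h replicate 3 and below 22 CPM in every Ser5p library.

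**Figure D3:**
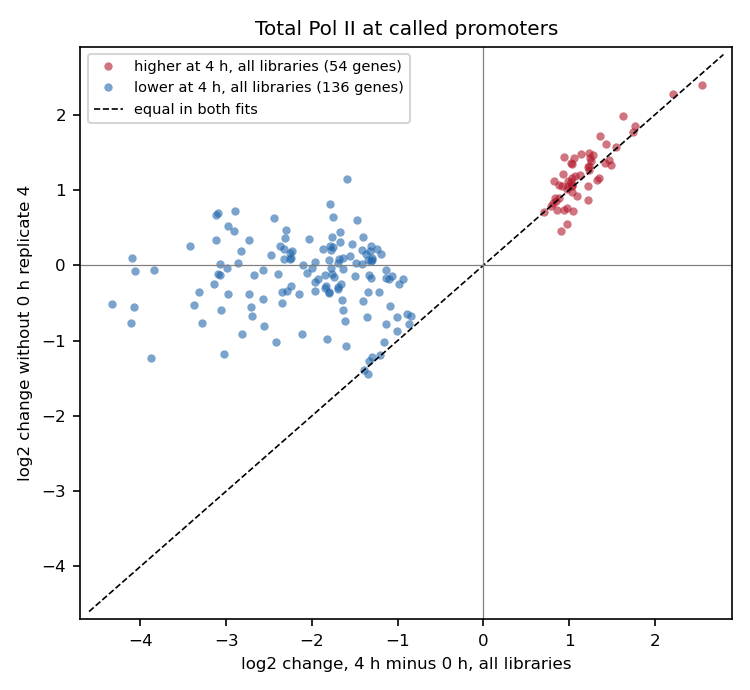
Log2 change of NTD at each called gene with all libraries (x axis) against the change without 0 h replicate 4 (y axis). The genes called higher lie near the diagonal, and most genes called lower fall to near 0 on the y axis.

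Psat1 was the 1 gene called lower in both fits. Psat1 (chr19:15905123-15925059), the aminotransferase of serine synthesis, had 56.7, 30.9 and 43.5 CPM of NTD at 4 h and 106 and 115 CPM at 0 h. The groups did not overlap and both 0 h libraries were high, with a change of -1.33 ± 0.21 (edgeR adjusted p 0.00015) and -1.28 without 0 h replicate 4 (edgeR adjusted p 0.0234). With the authors' scale factors its edgeR adjusted p was 0.0533, and with DESeq2 without 0 h replicate 4 it was 0.326. A second Psat1 start, at -1.18, was also called in both fits. In the authors' deposited table the adjusted p of Psat1 was not under 0.05. Of the 136 lower genes, 128 had an adjusted p there and 2 were under 0.05. Ser5p at Psat1 stood at 56.8, 33.8 and 35.6 CPM at 4 h and 83.8 and 75.6 CPM at 0 h (-0.92, edgeR adjusted p 0.25, not called). NTD over the gene body was also lower in each 4 h library, 19.9, 14.2 and 17.4 CPM against 29.3 and 36.9 CPM at 0 h (-0.95, edgeR adjusted p 0.11).

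Besides Psat1, 13 of the 136 had 0 h replicate 4 within 2 times replicate 1. Chac1, which breaks down glutathione, had 58.7, 38.3 and 51.8 CPM of NTD at 4 h and 90.9 and 109 CPM at 0 h (-1.01, and -0.88 without 0 h replicate 4). Mthfd2, a mitochondrial enzyme of folate metabolism, had 62.2, 59.5 and 75.4 CPM at 4 h and 112 and 128 CPM at 0 h (-0.86 and -0.78). Zfp42, a zinc finger gene of naive stem cells also known as Rex1, had 91.5, 54.4 and 72.2 CPM at 4 h and 114 and 156 CPM at 0 h (-0.89 and -0.65). These lost their call without 0 h replicate 4, with edgeR adjusted p of 0.703, 0.507 and 0.877. Vldlr, Stc2, Zfp202 and Card19 changed by -0.78, -0.69, -0.68 and -0.54 without that library. The multicopy ribosomal RNA gene Rn45s, whose reads cannot be placed at 1 copy, was at -1.60 and -1.08.

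The last 5 of the 13 were microRNA genes of 1 cluster on chromosome 12, within chr12:109592846-109747960. Their annotated stretches are short, as for Mir127 at chr12:109592846-109592915, so the starts counted here need not be promoters. Mir127 had 7.46, 8.58 and 8.79 CPM of NTD at 4 h and 21.7 and 21.9 CPM at 0 h, and its change was -1.39 in both fits (edgeR adjusted p 0.00241 and 0.171). Ser5p there stood at 14.4, 10.2 and 7.02 CPM at 4 h and 23.6 and 21.9 CPM at 0 h. Mir654, Mir376c, Mir376b and Mir3072 changed by -1.35, -1.30, -1.21 and -1.15. Mir376c, Mir654 and Mir376b lie so close that their windows overlap, and counts were as low as 10 reads.

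A further 3 genes among the lower calls, Asns, Pck2 and Aars, are given as values chosen after they were seen, with no test. Asns, the asparagine synthetase, had 59.2, 29.2 and 54.1 CPM of NTD at 4 h and 79.5 and 211 CPM at 0 h (-1.61, and -0.74 without 0 h replicate 4). Pck2, the mitochondrial form of the enzyme that makes phosphoenolpyruvate, and Aars, the alanyl-tRNA synthetase, changed by -1.36 and -0.93, and by -0.69 and -0.18 without that library.

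Ser5p was called at 5 promoters in edgeR. Cd37, Ppdpf, Zfp523 and Steap3 were higher at 4 h (4 of 32774 transcripts, 0.0122%) and Rn45s was lower (0.00305%). Cd37 had 36.8, 33.3 and 33.1 CPM of Ser5p at 4 h and 10.6 and 15.9 CPM at 0 h (1.40 ± 0.26, edgeR adjusted p 0.0195). Ppdpf had 116, 115 and 119 CPM at 4 h and 54.6 and 36.0 CPM at 0 h (1.35 ± 0.23, edgeR adjusted p 0.0195). Zfp523 (chr17:28177196-28205886), a zinc finger gene, had 62.9, 61.2 and 54.1 CPM at 4 h and 26.8 and 25.6 CPM at 0 h (1.18 ± 0.22, edgeR adjusted p 0.0195). Each of these groups was well apart. Steap3 (chr1:120226414-120271081), an iron reductase of endosomes, had 62.4, 53.7 and 45.1 CPM at 4 h and 20.8 and 24.4 CPM at 0 h (1.26 ± 0.24, edgeR adjusted p 0.0296). All 4 were also called higher in NTD. The number of Ser5p calls depended on the method, with 36 higher and 2 lower transcripts in DESeq2, 45 and 5 in edgeR with a replicate block, 0 and 0 with the authors' scale factors, and 20 and 0 in the authors' deposited table. Rn45s had 102, 55.8 and 57.2 CPM at 4 h and 135 and 363 CPM at 0 h (-1.78, and -0.91 without 0 h replicate 4).

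Without 0 h replicate 4, edgeR called 0 Ser5p promoters higher and 0 lower of 32895, with 520 and 461 at an unadjusted p under 0.05, and DESeq2 called 0 in each direction. The edgeR adjusted p were then 0.218 for Cd37, 0.369 for Steap3 and 1 for Ppdpf and Zfp523, with changes of 1.68, 1.36, 1.09 and 1.14. The count was also 0 without 4 h replicate 3 or without 4 h replicate 4. With 0 h replicate 1 left out edgeR called 24 transcripts higher and 344 lower.

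At the 54 genes where NTD rose, Ser5p leaned the same way in nearly all. Its change was positive in 53 of 54, with a median of 0.80, beside 48.1% positive and a median of -0.02 over all symbols. In 47 of 54 every 4 h library was above every 0 h library, beside 12.7% of all tested transcripts, and 4 were called (0.0122% of all). After 0 h replicate 4 was left out, 53 of 54 positive and a median of 0.80 were found again, with 0 called. Stra8 had 35.4, 44.5 and 48.1 CPM of Ser5p at 4 h and 16.2 and 17.1 CPM at 0 h, and Rarb had 42.8, 54.7 and 53.6 CPM at 4 h and 19.0 and 25.0 CPM at 0 h. At Cyp26a1, the 0 h libraries differed more, 65.7, 54.7 and 56.7 CPM at 4 h and 22.7 and 42.1 CPM at 0 h, and the change was 0.90 (edgeR adjusted p 0.363). Cyp26c1 was the 1 gene with a negative change, -0.09, with 18.2, 24.1 and 13.5 CPM at 4 h and 19.0 and 20.7 CPM at 0 h. Camk2n1 moved little, 31.7, 21.5 and 24.1 CPM at 4 h and 19.4 and 24.4 CPM at 0 h (0.25).

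Whether the Ser5p change differed from the NTD change was tested as an interaction over 35 libraries. EdgeR called 0 of 32820 transcripts in either direction, with 382 and 543 at an unadjusted p under 0.05, and DESeq2 called 0 and 0. The count was not 0 under every setting: it was 107 higher and 7 lower with 0 h replicate 1 left out, 45 higher with 72 h replicate 3 left out, 28 higher with the authors' scale factors and 20 higher with a replicate block. The labels do not say whether NTD and Ser5p libraries of the same number share chromatin, and the model treats them as separate. The difference (Ser5p minus NTD) was -1.65 at Cyp26a1 (p 0.0021, edgeR adjusted p 0.814), -1.25 at Cdx1, -1.21 at Cyp26c1 and -0.79 at Acp5. Without 0 h replicate 4 of both antibodies it was -1.01 at Cyp26a1. These values are lower for Ser5p at genes picked for a large NTD rise, and none passed the test.

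The members of the fixed lists showed no Ser5p call in either direction. The homeobox and patterning genes known to carry Polycomb had a negative Ser5p change in 28 of 28, with a median of -0.68, but of -0.17 without 0 h replicate 4. Their summed level ran from 356.3 to 755.9 CPM at 4 h and was 620.3 CPM in 0 h replicate 1 and 1241 CPM in 0 h replicate 4. The posterior Hox genes (-0.69 and -0.24) and the neural genes (-0.61 and -0.06) likewise came nearer to 0 without that library. In NTD the Polycomb-associated genes had a median of 0.00, and -0.17 without 0 h replicate 4.

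Gene bodies gave a further view of the 54, but in NTD not an independent one. Body NTD comes from the same libraries whose promoter values chose these genes. Short genes such as Mir7083 lie within their own promoter window, so some of the reads may be the same. NTD over the bodies was positive in 53 of 54 (median 0.75) with the 4 h libraries all above in 49, beside 11.1% of all transcripts, and 4 were called, beside 0.0188% of all. These were Cyp26c1 (1.38, edgeR adjusted p 0.0417), Steap3 (0.80, 0.0417), Camk2n1 (1.35, 0.0459) and Nrip1 (0.90, 0.0459). The Cyp26c1 body had 12.6, 12.9 and 13.6 CPM of NTD at 4 h and 5.14 and 4.85 CPM at 0 h, although its promoter Ser5p was level. None of the 54 bodies was called in edgeR once 0 h replicate 4 was left out, nor with 0 h replicate 1 left out, nor with replicate 3 or 4 of the 4 h libraries left out. Ser2p over the bodies was positive in 49 of 53 (median 0.49) and above in 45, beside 16.2%. EdgeR called 0 of all 32123 in either direction, with 1657 and 1319 at an unadjusted p under 0.05. DESeq2 called 78 higher and 0 lower, with no adjusted p for 8719 transcripts.

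Among the 11 genes called in both promoter fits, the bodies differed widely. Cyp26a1 had 13.8, 17.2 and 13.9 CPM of body NTD at 4 h and 2.64 and 2.17 CPM at 0 h (2.64, edgeR adjusted p 0.129). Dock6 had 148, 174 and 198 CPM at 4 h and 76.2 and 88.0 CPM at 0 h (1.08), with Ser2p of 104, 108 and 131 CPM at 4 h and 57.1 and 49.8 CPM at 0 h (1.10). Rarb stood apart from these, with 56.8, 53.3 and 50.3 CPM of body NTD at 4 h and 48.5 and 51.5 CPM at 0 h (0.10) and a Ser2p change of -0.09. None of these bodies was called. Body reads were not scaled to gene length, so levels cannot be compared between a long gene such as Rarb and a short one such as Cyp26a1. Whether the Rarb body reads stood above background was not tested.

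**Figure D4:**
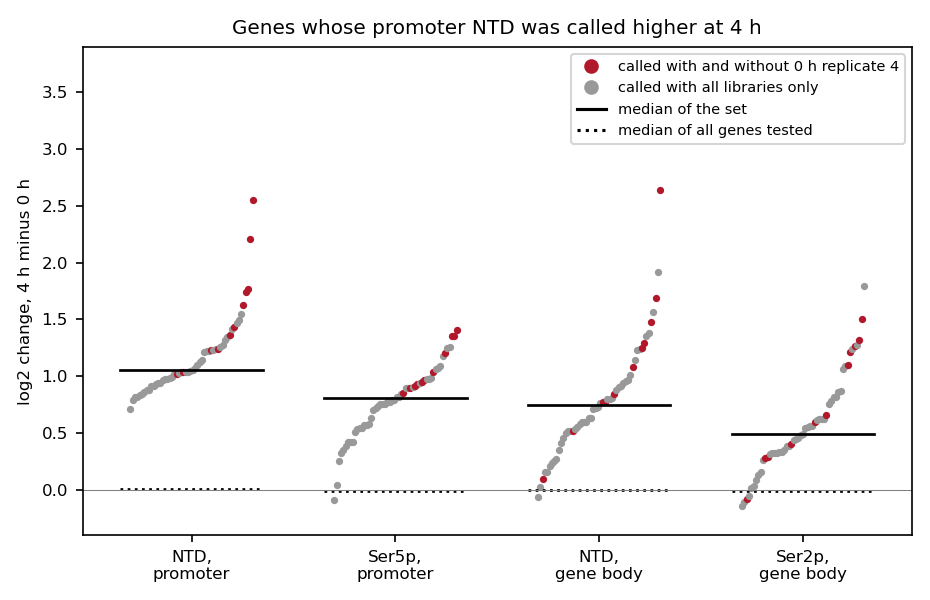
Log2 change at 4 h of the 54 genes called higher in promoter NTD, in 4 readouts: NTD and Ser5p at promoters, NTD and Ser2p over gene bodies. Points are genes in rising order, red for the 11 called with and without 0 h replicate 4; solid lines are the medians of the set (1.05, 0.80, 0.75 and 0.49) and dotted lines those of all genes. The first column is the readout that chose the genes, and NTD over gene bodies is from the same libraries.

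The neighbouring times place the 4 h levels in the early course. Cyp26a1 NTD stood at 13.4 and 11.2 CPM at 0 h, 65.1 and 48.1 CPM at 2 h, 71.1, 74.4 and 69.4 CPM at 4 h and 95.7, 75.1 and 67.8 CPM at 6 h. Rarb stood at 14.5 and 22.3 CPM at 0 h, 49.6 and 49.1 CPM at 2 h, 59.7, 57.2 and 56.4 CPM at 4 h and 50.7, 68.5 and 68.2 CPM at 6 h. Most of the level seen at 4 h was thus present at 2 h in both genes. Stra8 was less even, with 43.0 and 22.5 CPM at 2 h and 50.2, 56.3 and 51.9 CPM at 6 h. Psat1 had 56.1 and 83.6 CPM at 2 h, and 60.0, 52.8 and 80.8 CPM at 6 h. Over the transcripts of the 54, the median NTD level was 21.7 and 22.3 CPM at 0 h, 42.7 and 45.5 CPM at 2 h, 47.8, 52.7 and 52.7 CPM at 4 h, and 32.2 and 33.1 CPM at 72 h. All of these times share the 0 h libraries.

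**Figure D5:**
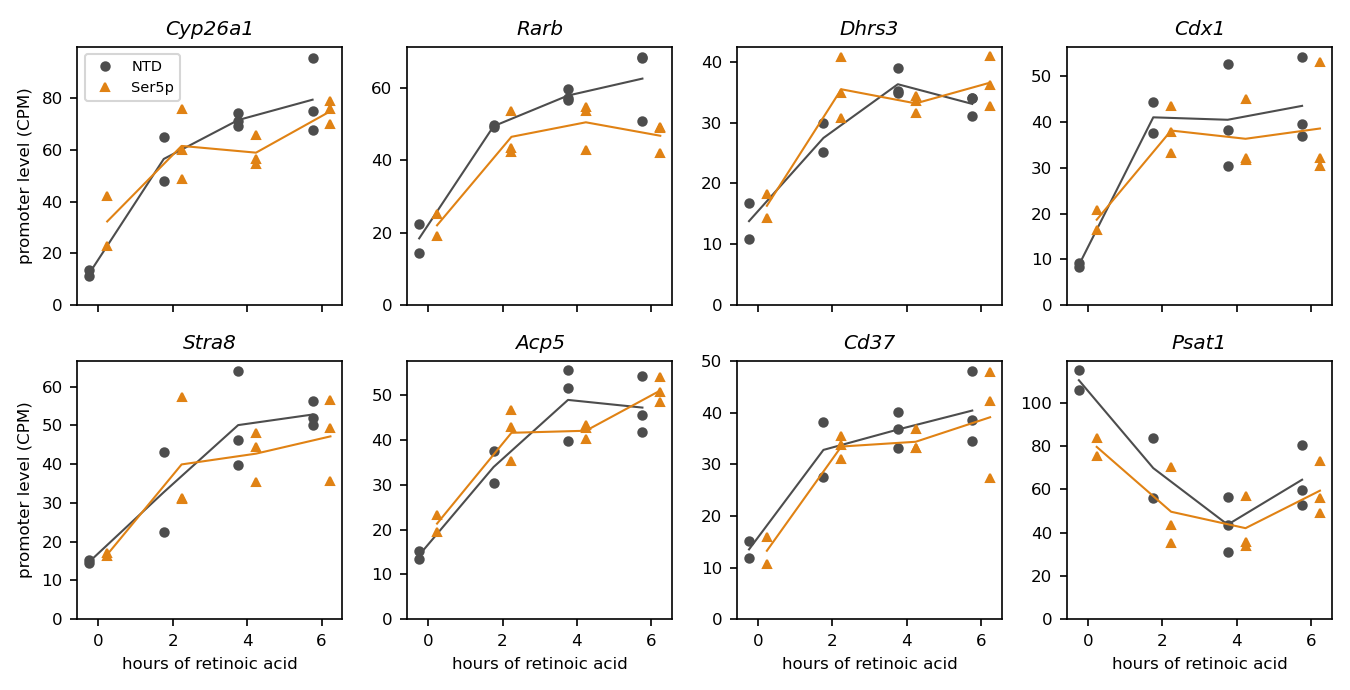
NTD (grey circles) and Ser5p (orange triangles) CPM in each library at 0, 2, 4 and 6 h for the genes shown, with lines through the means. In NTD, Cyp26a1 and Rarb are near their 4 h level at 2 h, and Psat1 is highest at 0 h, at 106 and 115 CPM.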

How the data were processed

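Crosslinked ChIP-seq of Pol II (NTD and Ser5p at promoters, NTD and Ser2p over gene bodies) was measured in the E14 samples. The submitters' processing notes name the builds mm10 and dm6 and the tools Bowtie2, SAMtools, MACS2 and DESeq2, with no version and no counting tool. The authors deposited raw read counts per RefSeq transcript. The normalized signal they deposited equals that count multiplied by 1 constant per library, used here only as an alternative scaling. The authors' deposited log2 fold changes, which are shrunken, and their deposited adjusted p-values were read only to count overlaps. A further 35 per-sample and 14 group-mean columns were not used.

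The main test was edgeR's quasi-likelihood test (version 4.0.16, TMM scaling, filterByExpr), run in R 4.3.3 with limma 3.58.1 and data.table (version 1.17.8), and with DESeq2 1.42.0 as an alternative; tables and figures were made in Python 3.11.15. All libraries of an antibody entered 1 fit (17 NTD, 18 Ser5p) with time as a factor, and 4 h was set against 0 h with Benjamini-Hochberg adjustment over all transcripts. The common biological coefficient of variation was 0.138 (NTD) and 0.141 (Ser5p) at promoters. The fits were tested on simulated counts first. Alternatives were other scaling and filters, a replicate block, fewer libraries and a single transcript per set of identical counts. Of 33687 NTD and 33746 Ser5p transcripts, 11519 and 11534 share their counts with another, so each symbol was counted through its transcript of highest mean count. Transcripts with no symbol (80 and 90) held 0.0650% and 0.0761% of counts and stayed in the fits. No pair of libraries held identical counts.

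Named genes are those called in both fits, the 5 largest rises and falls called only with 0 h replicate 4, called members of 25 lists (up to 4 per list, at least 5 CPM on average for the first sets), 30 fixed genes, and others named after their values were seen. A gene that this rule names is not reported here. The members and lists were chosen with earlier results of these data known. Gene positions and promoters are from RefSeq (GRCm38.p6, that is mm10), 1-based; of 22142 symbols 21666 had a location and 16100 a promoter. ChIP-seq reads carry no strand, so genes whose windows overlap cannot be told apart.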

Additional observations from a re-analysis of the deposited data

How the results depend on the processing

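Counts below are transcripts at an adjusted p of 0.05, higher unless said. In its promoter fits of all libraries DESeq2 gave many transcripts no adjusted p, as stated above, and these are not counted. Without 0 h replicate 4 it gave every transcript one, so its counts with and without that library are over unlike sets. For NTD promoters (87 higher, 139 lower), the authors' scale factors gave 28, 1 transcript per set of identical counts 56, leaving out 0 h replicate 4 and 72 h replicate 3 gave 30 (4 lower), 0 h and 4 h libraries alone without 0 h replicate 4 gave 41 (5 lower), DESeq2 gave 9 lower, and DESeq2 without 0 h replicate 4, chosen after seeing the data, 5 (0 lower). Leaving out single replicates gave 16 to 111 higher and 2 to 188 lower. For Ser5p (4 higher, 1 lower), DESeq2 gave 36 (2 lower), the authors' scale factors 0 (0 lower), 0 h and 4 h libraries alone 8, the same without 0 h replicate 4 gave 9 (0 lower), leaving out 72 h replicate 3 gave 7, and leaving it out with 0 h replicate 4 gave 0 (0 lower), as did DESeq2 without 0 h replicate 4. Leaving out single replicates gave 0 to 24 higher and 0 to 344 lower, with 25 lower without 4 h replicate 1. For the Ser5p minus NTD difference (0 and 0), the authors' scale factors gave 28 and leaving out 72 h replicate 3 gave 45, while single replicates gave 0 to 107 higher and 0 to 7 lower, the highest without 0 h replicate 1. Leaving out 0 h replicate 4 of NTD alone, also chosen after seeing the data, gave 0. Of the called promoters' gene bodies, NTD (4) gave 22 with DESeq2, 0 with the authors' scale factors, 17 with 0 h and 4 h libraries alone, 13 without 72 h replicate 3, 0 without that and 0 h replicate 4, and 0 to 13 without single replicates. Ser2p (0) gave 12 with DESeq2, 11 with 0 h and 4 h libraries alone and 9 with these without 0 h replicate 4. The cause of these shifts was not tested.

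Only a chosen part of the called genes was followed through every setting, and among these the sign reversed at 4 genes. It did so without 0 h replicate 4, without that and 72 h replicate 3, with 0 h and 4 h libraries alone without 0 h replicate 4, and with DESeq2 without it. In that order the changes were 0.209, 0.208, 0.197 and 0.221 at Hoxb1 and 0.19, 0.191, 0.177 and 0.189 at Hoxb3. They were 0.151, 0.15, 0.138 and 0.162 at Mcm3 and 0.098, 0.098, 0.086 and 0.103 at Megf10. Over all 136 genes called lower, 56 had a positive change without 0 h replicate 4. Of all values recomputed, 1888 kept direction and side of the threshold, 293 lost a call, 46 gained one, 16 reversed and 93 moved. Over single replicates left out, the lowest changes of these 4 genes were -2.519, -3.028, -1.837 and -5.021, each without 0 h replicate 1.

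The 0 h and 4 h libraries share 2 replicate numbers, too few to decide whether the numbers pair them: deviations of the same number correlated at 0.155 and 0.17 (NTD) and at -0.245 and 0.005 (Ser5p). With the number as a replicate block, edgeR called 127 higher and 157 lower in NTD, 45 and 5 in Ser5p, 20 and 0 for the difference and 13 NTD gene bodies.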
